A study of Mus musculus with 2 samples.

Results

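Of the 1973 miRNA gene rows counted in the limb of the mouse embryo, 7 held at least 100 antisense reads in each replicate and none on the strand of the annotated gene. They are Gm25301, Gm25927, Gm24321, Gm25252, Gm24083, Gm25750 and Mir142b. The rows were selected on their counts, with 0 sense counts and at least 100 antisense counts required in both replicates, so the height of these counts and their antisense share are given as a description with no test. The ratio of a row between the replicates was not part of the rule and is tested further on. Each of the 7 lies across a miRNA gene of the other strand, in that order Mir378a, Mirlet7e, Mir409, Mir376a, Mir191, Mir380 and Mir142. The antisense counts of a row are given as its level.

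The study has 1 group with 2 biological replicates of limb tissue from healthy embryos of mouse strain B6NCrl at embryonic day 15.5, with both sexes pooled. No genetic change or treatment is named in the labels. Replicate 1 was a pool of 78 embryos and replicate 2 a pool of 62 embryos, and RNA fragments below 30 nt were sequenced. With no second tissue, stage or treatment, the comparisons are between the rows and between the replicate pools.

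A miRNA is cut from a hairpin precursor, and one or both arms of the hairpin become a mature miRNA of about the length of the sequenced fragments. Bases 2 to 8 of the mature miRNA, the seed, pair with messenger RNAs and set most of the target choice. The reverse complement of a hairpin can often fold into a hairpin too, so a computed annotation may place a miRNA gene on either strand of a known miRNA. A strand-specific count keeps the strands apart and books reads of the other strand as antisense reads of the gene.

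The mature miRNAs of 6 of the 7 opposite genes, all but Mir378a, are shown because they are the known products of the strand that held all the reads of those rows. They are taken from RefSeq on GRCm38.p6, 5′ to 3′, with the seed in capitals.
mmu-let-7e-5p: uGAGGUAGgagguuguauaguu
mmu-let-7e-3p: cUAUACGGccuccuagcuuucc
mmu-miR-409-5p: aGGUUACCcgagcaacuuugcau
mmu-miR-409-3p: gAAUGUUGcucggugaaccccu
mmu-miR-376a-5p: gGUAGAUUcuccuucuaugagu
mmu-miR-376a-3p: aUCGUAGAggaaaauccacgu
mmu-miR-191-5p: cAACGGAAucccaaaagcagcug
mmu-miR-191-3p: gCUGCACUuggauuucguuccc
mmu-miR-380-5p: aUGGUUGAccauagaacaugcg
mmu-miR-380-3p: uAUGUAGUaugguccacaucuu
mmu-miR-142a-5p: cAUAAAGUagaaagcacuacu
mmu-miR-142a-3p: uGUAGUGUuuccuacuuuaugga
All 12 of these arms, from 6 genes, lie wholly inside the row opposite them. The files give counts per gene, so the split of the reads between the arms is not known. In the RefSeq table the seed of let-7e-5p is shared with 10 other mature miRNAs, among them let-7a-5p, let-7g-5p, let-7i-5p and miR-98-5p. None of the other 11 arms shares its seed with another mature miRNA of that table.

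Mir142b has a mature product of its own in RefSeq, printed here so that both strands can be set side by side.
mmu-miR-142b: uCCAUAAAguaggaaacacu
Its reverse complement is identical to bases 4 to 23 of miR-142a-3p, so these products occupy the same bases of chromosome 11 on opposite strands. Mir142b, the gene of miR-142b, had 0 sense counts in both replicates. The antisense strand of the whole row, which holds miR-142a-3p together with miR-142a-5p, had 3099 counts in replicate 1 and 3821 in replicate 2. How many of them lie on the bases opposite miR-142b is not known.

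The row that fits its opposite miRNA most closely is Gm24321, and its sequence is printed with that of Mir409 to show the strand relation. Capitals mark the mature arms of Mir409 and, in Gm24321, their reverse complements.
Gm24321: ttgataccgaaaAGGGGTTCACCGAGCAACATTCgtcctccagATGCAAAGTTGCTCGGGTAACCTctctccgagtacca
Mir409: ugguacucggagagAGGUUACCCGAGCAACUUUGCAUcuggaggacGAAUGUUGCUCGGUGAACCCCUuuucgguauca
Gm24321 (GENCODE M21 transcript, GRCm38, minus strand, chr12:109743158-109743237) has 80 bases. Mir409 (RefSeq hairpin, plus strand, chr12:109743158-109743236) has 79 bases.

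All 7 rows held the complete reverse complement of the opposite precursor. The rows are 80 to 120 bases long and the opposite precursors 61 to 93 bases. On the GRCm38 assembly, which mm10 names too, Gm25301 (ENSMUSG00000093026.1, plus strand) runs on chromosome 18 from 61397813 to 61397925, and Mir378a (minus strand) from 61397835 to 61397900. Gm25927 (ENSMUSG00000092799.1, minus strand) runs on chromosome 17 from 17830343 to 17830459, and Mirlet7e (plus strand) from 17830352 to 17830444. Gm25252 (ENSMUSG00000093218.1, minus strand) runs on chromosome 12 from 109723756 to 109723875, and Mir376a (plus strand) from 109723781 to 109723848. Gm25750 (ENSMUSG00000093224.1, minus strand) lies on the same chromosome from 109711779 to 109711890, across Mir380 (plus strand) from 109711803 to 109711863. Gm24083 (ENSMUSG00000092915.1, minus strand) runs on chromosome 9 from 108568295 to 108568414, and Mir191 (plus strand) from 108568319 to 108568392. Mir142b (ENSMUSG00000065420.2, minus strand) runs on chromosome 11 from 87756841 to 87756955, and Mir142 (plus strand) from 87756864 to 87756927. The row reached beyond the opposite precursor by 0 to 28 bases on a side, as the map of the rows shows.

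**Figure D1:**
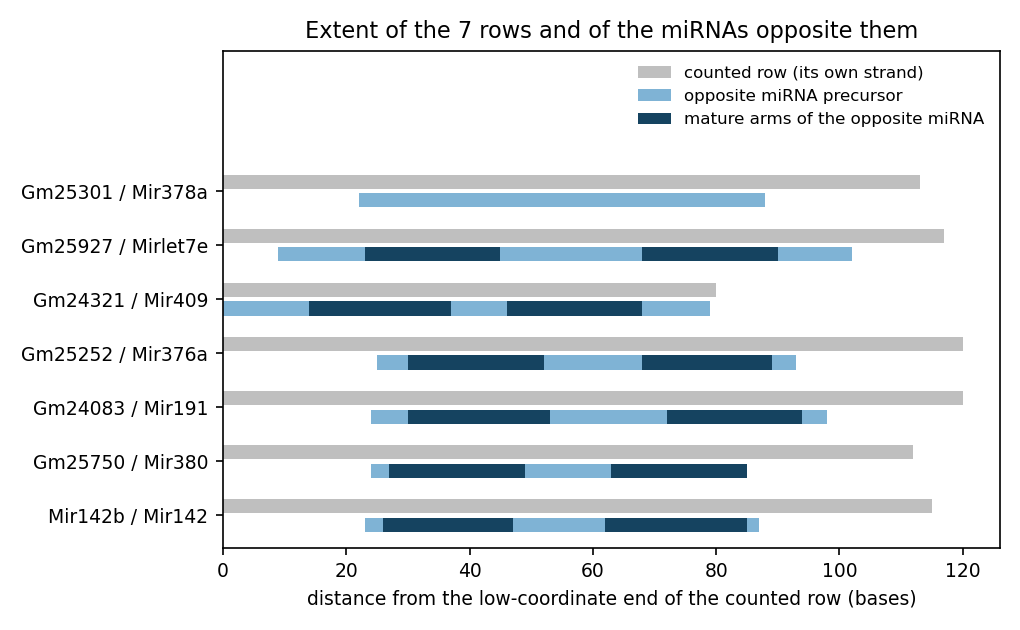
Extent of each of the 7 rows (grey) above the precursor of the miRNA on the other strand (light blue) with its mature arms (dark blue), in bases from the low-coordinate end of the row. Each precursor lies inside its row, and Gm24321 is the row with the shortest overhang, 0 bases on one side and 1 on the other. For Mir378a only the precursor is drawn.

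On their own strand, the 7 rows overlap no other annotated gene. On the strand that held the reads, 5 of the opposite miRNAs lie within a longer gene. Mir378a is in an intron of Ppargc1b, a coactivator of mitochondrial gene expression, and Mirlet7e in an intron of Spaca6, a gene for a sperm protein needed for fertilization. Mir409 is in an intron of the noncoding RNA Mirg, Mir142 in an intron of its noncoding host Mir142hg, and Mir191 in an exon of the noncoding RNA 4833445I07Rik. Mir376a and Mir380 overlap no longer gene of their strand in this annotation.

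The bases of each opposite precursor were folded in silico on both strands with RNAfold. These windows were thus set by the gene on the strand with the reads, and the longer rows were not folded whole. The predicted minimum free energy on the strand of the row had a median of -30.6 kcal/mol over the 7 windows, against -35.0 kcal/mol on the strand that held the reads. In 6 of 7 windows the energy was lower on the strand with the reads. Mir142b was close to even, with -26.8 kcal/mol on the strand of the row and -26.9 kcal/mol on the strand of Mir142. In the window of Gm25252 the order was the other way, with -19.1 kcal/mol on the strand of the row and -16.6 kcal/mol on the strand of Mir376a. These are predictions from sequence, and no test was made on them.

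Levels are CPM, the count scaled to a total of 1e+06 miRNA counts on both strands. That total was 4422709 in replicate 1 and 5316080 in replicate 2. It was used since a sense total leaves out the reads of these rows. Reads with several alignments, 29.4% and 29.7% of the 2 libraries, are in no gene. Where nothing was counted, the limit is 3 counts, which corresponds to 0.678 CPM (replicate 1) or 0.564 CPM (replicate 2). Intervals and limits cover counting error only. Levels are not divided by length, since a read is about as long as a mature miRNA, and whether different miRNAs were captured equally was not tested. The tissue label was set beside marker miRNAs. The Hox miRNAs (6 of 6 genes detected) held 5.22% ± 0.707 of the counts, the cartilage miRNAs Mir140 and Mir455 4.50% ± 0.124, and the epidermal Mir203 and Mir205 8.58% ± 0.755. The muscle list held 0.799% ± 0.446, with 5 of 9 genes detected, and the neuronal list 0.0302% ± 0.00874, with 2 of 8 (SD, n = 2). Both lists hold genes in several copies, whose shared reads are in no gene, so an undetected copy does not show an absent miRNA. The endothelial Mir126a held 2.16% ± 0.0951, the erythroid Mir451a and Mir144 0.0403% ± 0.000702, and the liver miRNA Mir122 0.00695% ± 0.00199 (SD, n = 2).

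Together the 7 rows held 143418 counts in replicate 1 and 148612 in replicate 2. Of all both-strand miRNA counts, this was 3.24% in replicate 1, with a Wilson 95% interval from 3.23 to 3.26. In replicate 2 it was 2.80%, with an interval from 2.78 to 2.81. They made up 90.2% and 90.1% of the antisense counts of all rows. In the sense column these reads are booked as outside any miRNA gene, where the 7 rows account for 34.4% of 416872 reads in replicate 1 and 34.3% of 432767 reads in replicate 2.

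Gm25301, opposite Mir378a, was the highest of the 7. miR-378a is co-transcribed with Ppargc1b and is known as a regulator of energy metabolism. Gm25301 had 44683 antisense counts in replicate 1 and 38941 in replicate 2, which is 10103 and 7325 CPM, with a mean of 8714 ± 1964 CPM (SD, n = 2). By mean CPM it stood at rank 26 of all sense and antisense levels, between Mir143 with 8911 CPM and Mir652 with 8243 CPM. The limit of 3 counts would be 0.00671% and 0.00770% of its antisense counts. Since the rule required 0 sense counts, this is a description and not a bound on the sense strand.

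Gm25927, opposite Mirlet7e, had 28077 and 36078 antisense counts in replicates 1 and 2. This is 6348 and 6787 CPM, with a mean of 6567 ± 310 CPM (SD, n = 2) and rank 31. The let-7 family, to which let-7e belongs, accumulates as embryonic cells differentiate.

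Gm24321, opposite Mir409, had 31251 and 30866 antisense counts, or 7066 and 5806 CPM, with a mean of 6436 ± 891 CPM (SD, n = 2) and rank 32. Its replicate values enclose those of Gm25927, so the order of these rows is not larger than the spread between replicates. Mir409, Mir376a and Mir380 belong to the Dlk1-Dio3 imprinted region of chromosome 12, whose miRNAs are made from the maternal allele.

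Gm25252, opposite Mir376a, had 19523 and 19295 antisense counts, or 4414 and 3630 CPM, with a mean of 4022 ± 555 CPM (SD, n = 2) and rank 52. Precursors of the miR-376 family are known in brain as substrates of adenosine-to-inosine editing. Gm24083, opposite Mir191, had 11179 and 13602 antisense counts, or 2528 and 2559 CPM, with a mean of 2543 ± 21.9 CPM (SD, n = 2) and rank 67.

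Gm25750, opposite Mir380, had 5606 and 6009 antisense counts, or 1268 and 1130 CPM, with a mean of 1199 ± 97.0 CPM (SD, n = 2) and rank 97. miR-380-5p is known to repress p53 in neuroblastoma cells. Mir142b, opposite the blood-cell miRNA gene Mir142, was the lowest of the 7. Its antisense counts correspond to 701 CPM in replicate 1 and 719 CPM in replicate 2, with a mean of 710 ± 12.8 CPM (SD, n = 2) and rank 115.

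The highest of the 7 rows exceeded the lowest 12.3-fold by mean CPM. Apart from Gm25927 and Gm24321, which differ 1.02-fold, neighbours in the order did not overlap between replicates. The ratio of neighbouring means was 1.33 for Gm25301 over Gm25927, 1.60 for Gm24321 over Gm25252, 1.58 for Gm25252 over Gm24083, 2.12 for Gm24083 over Gm25750, and 1.69 for Gm25750 over Mir142b. With 2 replicates this order is a description.

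**Figure D2:**
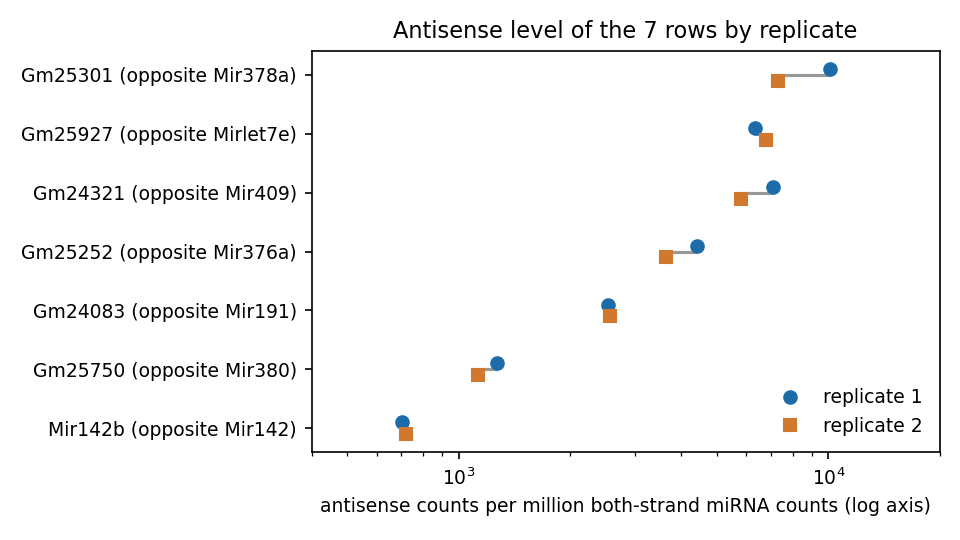
Antisense level in CPM (log axis) of the 7 rows, with circles for replicate 1 and squares for replicate 2. The rows span from 701 CPM (Mir142b, replicate 1) to 10103 CPM (Gm25301, replicate 1), and the replicate values of Gm24321 enclose those of Gm25927.

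The rows with the most similar levels in both replicates were named by the sum of the absolute log2 differences in CPM over the 2 replicates. Mir379 was nearest to Gm24321 (0.0416), Mir21a to Gm25927 (0.0990) and Mir18 to Gm24083 (0.148). For Gm25750 it was Mir1983 (0.171), for Gm25252 Mir30d (0.174), for Gm25301 Mir143 (0.180) and for Mir142b Mir196a-2 (0.231). Over only 2 replicates this is a likeness of level.

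The position of the 7 rows was then set against all places where miRNA genes of both strands overlap. GENCODE M21 has 2202 miRNA genes, of which 1894 had a row in the count tables and 308 had none. In 32 places a miRNA gene overlaps another on the other strand, and in each of the 32 exactly 1 of the pair had a row. In no pair did both genes have one. All 32 genes without a row, the 7 opposite miRNAs included, carry an Ensembl gene number above the highest one in the tables, 99331. The count tables used the earlier release M4, per the deposited README.

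Among the rows of the 32 pairs, 13 had more antisense than sense counts in both replicates, 16 had more sense than antisense counts, and 3 had neither order. The row of the pair was thus not always on the strand without reads. Mir126a, opposite Mir126b, had 8 and 15 antisense counts beside 92513 and 118347 sense counts. Mir30e, opposite Mir30f, had 0 antisense counts beside 67257 and 87861 sense counts. At least 10 counts on both strands in both replicates were found at 3 rows, Mir299b, Mir3074-1 and Mir486. The last of these had 12 and 10 antisense counts beside 114 and 89 sense counts.

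The 32 rows held 99.9% of the antisense counts in each replicate. Outside the pairs, 1941 rows had 89 antisense counts in replicate 1 and 101 in replicate 2, or 0.00218% and 0.00205% of their counts on both strands. The highest of these rows was Mir203 with 29 and 47 antisense counts, beside 288966 and 398120 sense counts. The 1941 rows include those not matched to GENCODE M21, for which an opposite gene could not be sought.

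**Figure D3:**
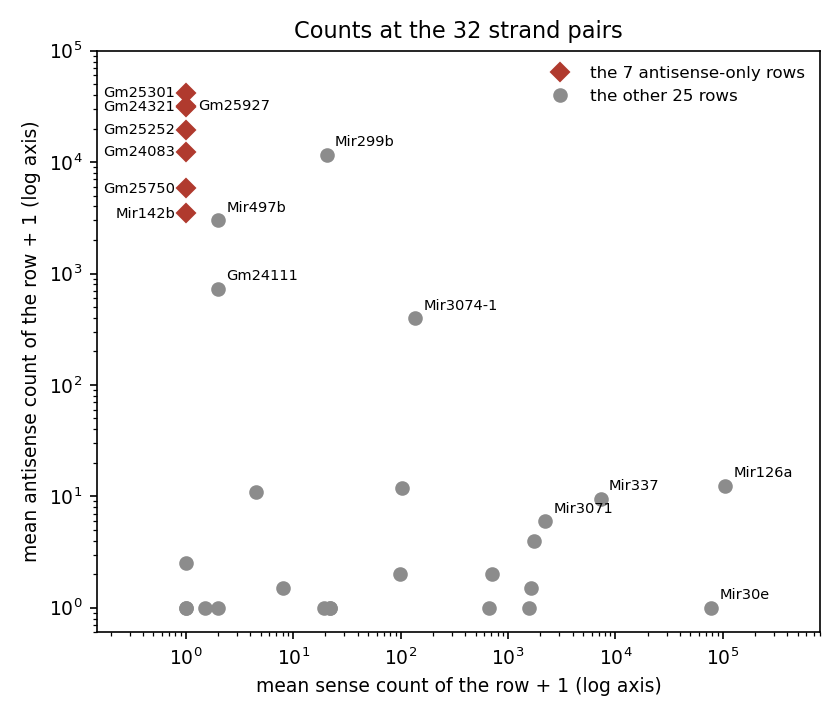
Mean antisense count plus 1 against mean sense count plus 1 (log axes, n = 2 replicates) for the rows of the 32 strand pairs. The 7 antisense-only rows (red diamonds) sit at a sense count of 0, while Mir126a and Mir30e lie at the far right with few or no antisense counts.

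Just inside the threshold on antisense counts, the lowest row was Mir142b with 3099 and 3821. Outside it, the highest rows with 0 sense counts had almost no reads, led by Gm25641, opposite Mir9-1, with 1 and 2 antisense counts. The others were Gm24513 with 1 in each replicate, and Gm24157, Mir467f and Gm24109 with 2, 1 and 1 in replicate 1 and 0 in replicate 2.

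On the sense side, 4 rows came close. Mir299b, opposite Mir299a, had 11782 and 11520 antisense counts and missed the rule by 23 and 16 sense counts. Mir497b, opposite Mir497, had 2663 and 3395 antisense counts with 0 sense counts in replicate 1 and 2 in replicate 2. Gm24111, opposite Mirlet7f-1, had 718 and 742 antisense counts and 1 sense count in each replicate. Mir3074-1, opposite Mir24-1, had reads of both strands, with 355 and 443 antisense counts (74.7% and 74.6%) beside 120 and 151 sense counts. With at least 100 antisense counts in both replicates, 11 rows had over 50% of their counts on the antisense strand, the 7 rows and these 4.

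The ratio between the replicates was not used to choose the rows. It was tested for 355 sense or antisense levels with at least 10 counts in both replicates, by an exact two-sided binomial test given the library totals and Benjamini-Hochberg adjustment over all 355. Of these, 184 passed an adjusted threshold of 0.05, which is 51.8%, with 25.9% higher and 25.9% lower in replicate 1. Among the 7 rows, 4 were higher and 1 was lower in replicate 1, and 2 did not pass. Of the 121 levels with a mean of at least 3000 counts, the 7 rows among them, 90.9% passed. The test sets 1 library against the other with counting error only and holds no information on a condition.

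Gm25301 was 1.38-fold higher in replicate 1 (95% interval 1.36 to 1.40), which is 0.46 on the log2 scale and past the threshold. Gm24321 was 1.22-fold higher in replicate 1 (1.198 to 1.236; adjusted p = 8.65e-131, exact binomial test). Gm25252 was also 1.22-fold higher (1.19 to 1.24; adjusted p = 1.25e-81, exact binomial test). Gm25750 was 1.12-fold higher (1.08 to 1.16; adjusted p = 2.52e-09, exact binomial test).

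Gm25927 was lower in replicate 1, at 0.935 times its level in replicate 2 (0.9209 to 0.9502; adjusted p = 2.13e-16, exact binomial test). Gm24083 had a ratio of 0.988 (0.963 to 1.01; adjusted p = 0.461, exact binomial test). Mir142b had 0.975 (0.929 to 1.02; adjusted p = 0.404, exact binomial test). Both intervals include equal levels, which does not show that the levels were equal.

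The median log2 ratio of the 7 rows was 0.17, against -0.02 for all 355 levels, and the median of its absolute value was 0.17 against 0.22. All 7 rows lay within 1.5-fold, as did 91.5% of the 355. The SD of the log2 ratio over the 355 levels was 0.37, and the biological coefficient of variation from edgeR was 14.5%. Only Gm25301 of the 7 exceeded that SD. The muscle list was also higher in replicate 1, with 1.11% of the counts against 0.483% in replicate 2, and 5 of its 5 detected genes passed the threshold. The highest of them was Mir206 with 10653 and 4638 CPM. In the same list Mir133a-1 had 0 counts and Mir1a-1 had 1 in either library. Genes of other marker lists passed the threshold as well. Both detected neuronal genes, Mir128-1 at 1.499-fold and Mir128-2 at 1.54-fold, and both cartilage genes were higher in replicate 1 past the threshold. Both epidermal genes, 4 of 6 Hox genes, Mir126a and Mir122 were lower past it, and neither erythroid gene passed. Of all 355 levels 25.9% were called in each direction. Of those with a mean of at least 3000 counts, 90.9% were called in either direction. Among the neuronal genes, Mir9-2 and Mir124a-1 to Mir124a-3 had 0 counts. Reads with several alignments are in no gene, so low counts at the copies of Mir1a, Mir133a, Mir9 and Mir124a do not show absent miRNAs. The part of any of these marker cell types in the ratio of Gm25301 was not tested.

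**Figure D4:**
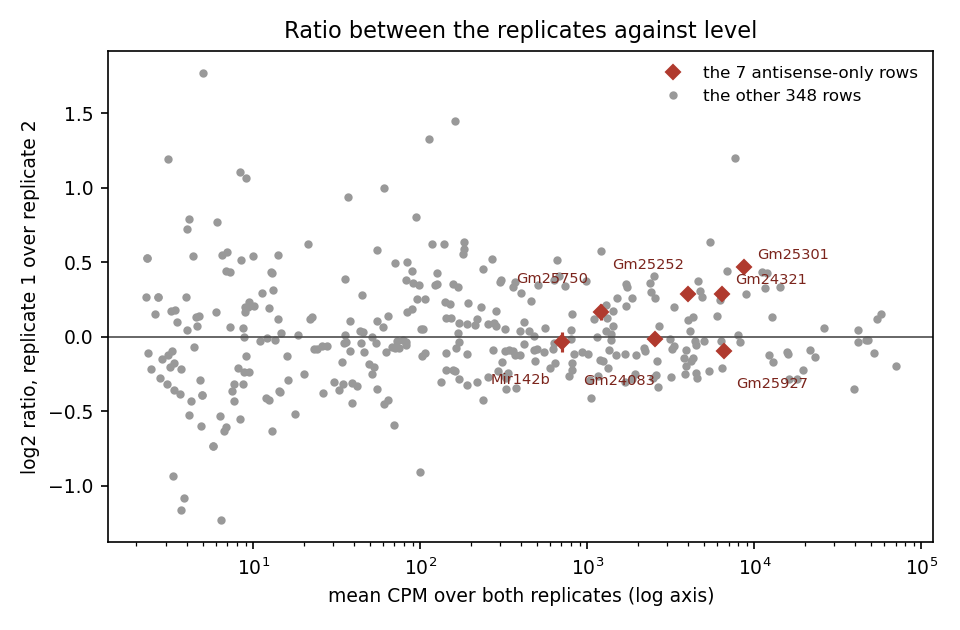
Log2 ratio of CPM, replicate 1 over replicate 2, against mean CPM (log axis) for 355 sense or antisense levels, with the 7 antisense-only rows as red diamonds and their 95% binomial intervals as bars. The 7 rows lie between -0.10 and 0.46, inside the cloud of the other levels.

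Genes that share a cluster with an opposite miRNA, on its strand and with neighbouring starts at most 10 kb apart, were given by their own sense counts. Mir378a and Mir142 have no such neighbour. Gm24083 at Mir191, with 2543 ± 21.9 CPM, lay above Mir425, the other gene of that pair, with 1422 ± 50.6 CPM (SD, n = 2). Mir425 was 1.05-fold higher in replicate 1 (adjusted p = 0.00682, exact binomial test), while the ratio at Mir191 was 0.988. With the antisense counts, Mir191 and Mir425 held 0.397% ± 0.00287 of the counts, against 0.142% ± 0.00506 without them (SD, n = 2).

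In the cluster of chromosome 17, Gm25927 at Mirlet7e lay between its neighbours. Its 6567 ± 310 CPM compare with 16065 ± 2221 CPM of Mir99b and 5004 ± 77.5 CPM of Mir125a (SD, n = 2). All 3 genes of this cluster were lower in replicate 1 and passed the threshold, Mir99b at 0.822 times, Mirlet7e at 0.935 times and Mir125a at 0.978 times its level in replicate 2. Mir125a passed narrowly (0.961 to 0.996; adjusted p = 0.0321, exact binomial test). It stood at -0.03 on the log2 scale, beside a median of -0.02 over all 355 levels, and other scalings were not examined for it. Of all 355 levels 25.9% were called lower, and of those with a mean of at least 3000 counts, as these 3 have, 90.9% were called in either direction. With the antisense counts of Gm25927 the cluster held 2.76% ± 0.261 of the counts, against 2.11% ± 0.230 without them (SD, n = 2).

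Mir380, Mir376a and Mir409 lie in 1 cluster of 39 annotated genes on the plus strand of chromosome 12, from Mir379 to Mir3072. For 38 of them a value was found, Mir376b being the one without, and 33 were detected. By mean CPM, Mir409 was the third of the cluster, after Mir411 and Mir487b and directly above Mir379 with 6340 ± 816 CPM (SD, n = 2). Mir376a ranked 9 and Mir380 ranked 13 in the cluster. These ranks depend on the 10 kb limit. Within 3 kb the genes fall into smaller clusters, where Mir409 ranked 1, Mir376a 5 and Mir380 7. Mir299a, counted through the antisense reads of Mir299b, came between them at rank 10 with 2664 and 2167 CPM.

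The detected genes of this cluster that have a sense row, 29 in all, had a median log2 ratio of 0.34, and 26 of them were higher in replicate 1 past the threshold, none lower and 3 not past it. Across all 355 levels, 25.9% were called higher. The ratios of the 29 genes ran from 1.02 to 1.75, and the 1.22-fold of Gm24321 and Gm25252 and the 1.12-fold of Gm25750 lie within that range. The nearest neighbours of Mir409 differed by more in level than in ratio. Mir369, just downstream, had 4884 ± 635 CPM and a ratio of 1.202, while Mir412, between them, had 89.4 ± 19.0 CPM and a ratio of 1.35 (SD, n = 2). With its 4 antisense-counted genes the cluster held 7.42% ± 1.23 of the counts, against 6.01% ± 1.04 without them (SD, n = 2).

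**Figure D5:**
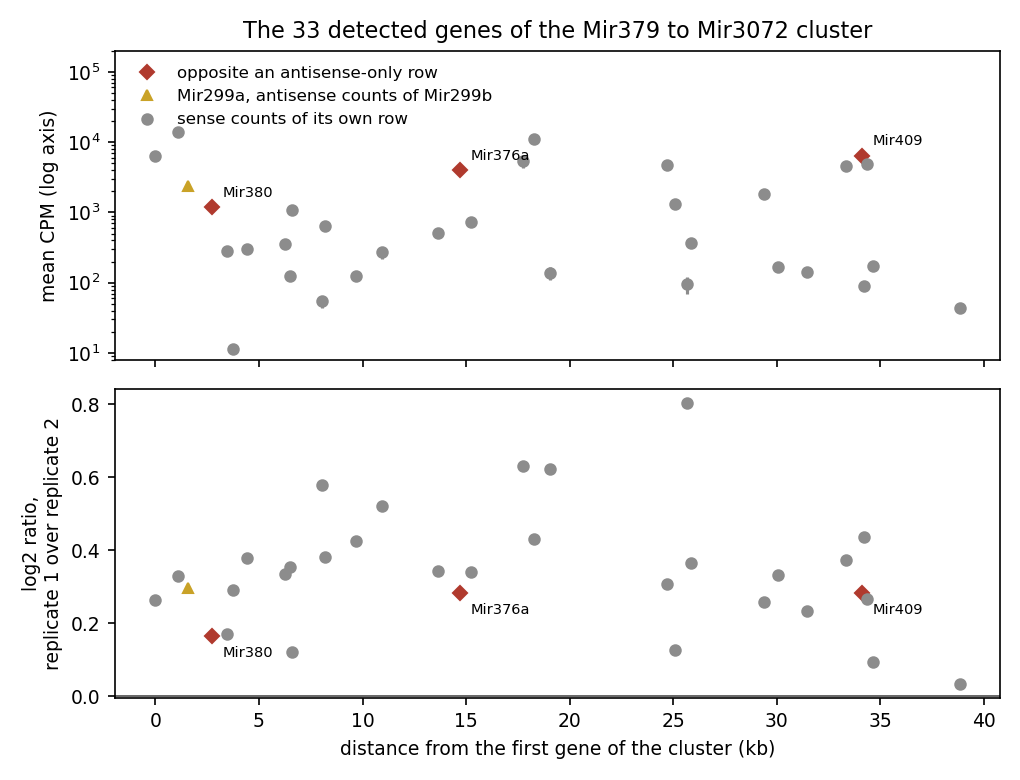
Mean CPM (upper panel, log axis, bars from replicate 1 to replicate 2) and log2 ratio of replicate 1 over replicate 2 (lower panel) of the 33 detected genes of the chromosome 12 cluster, by distance from its first gene in kb. Mir380, Mir376a and Mir409 (red diamonds), read from the antisense counts of Gm25750, Gm25252 and Gm24321, lie inside the range of the genes with a sense row (grey circles) in both panels.

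Counting the 7 rows by their antisense reads changed the make-up of small families and lists most. The miR-378 family held 0.874% ± 0.197 of the counts with Mir378a, against 0.00281% ± 0.000437 without it (SD, n = 2). Its other genes, Mir378c, Mir378d and Mir378b, had 13.01 ± 2.70, 12.01 ± 0.0391 and 3.09 ± 1.71 CPM (SD, n = 2). Their ratios of replicate 1 over replicate 2 rest on few counts and did not pass the threshold. Mir378c was at 1.34-fold with 66 and 59 counts, Mir378b at 2.28-fold with 19 and 10 counts, and Mir378d at 0.995 with 53 and 64 counts. No difference between these ratios and the 1.38-fold of Gm25301 was tested. The precursor of Mir378a has a stretch of 20 bases in common with that of Mir378c, so reads common to both are in neither value. With stretches of 18 bases, it shares one with Mir378b too. None of the other 6 opposite precursors has such a stretch in common with another miRNA gene.

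The miR-376 list has 4 genes, Mir376a, Mir376c, Mir300 and Mir376b, of which Mir376b was not analysed here. Mir300 is a gene of the same cluster without the miR-376 name, so shares of this list are not those of a miR-376 family. The list held 0.526% ± 0.0761 of the counts with Mir376a and 0.124% ± 0.0207 without it (SD, n = 2). Mir376a at 4022 ± 555 CPM stood above Mir300 with 734 ± 122 CPM and Mir376c with 508 ± 84.9 CPM, and all 3 were higher in replicate 1 past the threshold, beside 25.9% of all 355 levels. In the miR-154 list of 10 genes, all detected, 9 were higher in replicate 1 past the threshold, and Mir410 did not pass, against the same 25.9% called higher over all levels. Mir409 was the second of these genes by mean CPM, after Mir487b with 11072 ± 2319 CPM and before Mir381 with 5429 ± 1653 CPM (SD, n = 2). The list held 3.50% ± 0.654 with Mir409 and 2.86% ± 0.564 without it.

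In the let-7 family, all 12 genes were detected when Mirlet7e and Mirlet7f-1 were read from the antisense strand. Mirlet7e was the fourth, after Mirlet7i, Mirlet7g and Mirlet7d and directly above Mirlet7b with 6208 ± 747 CPM and Mir98 with 6005 ± 414 CPM (SD, n = 2). Its replicate values overlap those of Mirlet7b. Of the 12 genes, 6 were higher and 2 lower in replicate 1 past the threshold, Mirlet7e and Mirlet7g being the lower ones, where 25.9% of all 355 levels were called in each direction. Mirlet7g was at 0.985 times its level in replicate 2, with 204102 and 248949 counts. This is -0.02 on the log2 scale, beside a median of -0.02 over all 355 levels. Mirlet7f-1, read from Gm24111, had 151 ± 16.1 CPM. With Mirlet7e the family held 13.9% ± 0.548 of the counts, against 13.2% ± 0.579 without it (SD, n = 2). Reads with several alignments are in no gene, and Mirlet7a, Mirlet7c and Mirlet7f each have several genes in this list. Reads left out in this way were not counted per gene. The ranks and shares of the family thus hold only for reads with a single alignment.

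Among the leukocyte miRNAs, Mir142 read from Mir142b was the highest with 710 ± 12.8 CPM. The myeloid Mir223 followed with 419 ± 10.1 CPM, Mir155 with 189 ± 30.2 CPM, Mir146 with 72.4 ± 1.06 CPM and the lymphoid Mir150 with 14.5 ± 2.62 CPM (SD, n = 2). Mir146b had 0 and 4 counts, under the minimum of 10 by which a gene was called detected. Of the 5 detected genes, only Mir155 passed the threshold, lower in replicate 1 at 0.797 times its level in replicate 2, where 25.9% of all 355 levels were called lower and 51.8% in either direction. The list held 0.141% ± 0.00573 of the counts with Mir142 and 0.0695% ± 0.00446 without it (SD, n = 2). In these bulk samples, fewer cells of a type and less RNA per cell cannot be told apart.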

How the data were processed

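The authors deposited raw counts for each miRNA gene of 2 limb libraries, made on mm10 with GENCODE M4 per the deposited README. The sources used here do not name an aligner or counter. The 3 count columns carry no header. By their values, the first is the sum of the other 2 for each of 1973 rows, and they were taken as counts of both strands, sense counts and antisense counts. The difference between the lines of reads outside genes in the first and second columns, 159079 in replicate 1 and 164866 in replicate 2, equals the antisense total. The 4 summary lines entered no gene total.

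Rows were matched by gene identifier to GENCODE M21 (GRCm38), 1894 of 1973, and mature sequences came from RefSeq (GRCm38.p6). An opposite gene overlaps a row by at least 1 base. CPM used both-strand totals. The series has 1 group and hence no contrast for a quasi-likelihood fit. Replicates were compared with exact binomial tests (scipy 1.17.1, Python 3.11.15), and dispersion came from edgeR 4.0.16 in R 4.3.3. The tests were tried on simulated counts with counting error only, which cannot show how they behave with a spread between replicates. Folding used RNAfold 2.7.2. Alternatives included DESeq2 1.42.0 size factors.

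The rows and gene lists were chosen with earlier results of these data known. Reads carry no molecular identifiers in these tables, so intervals cover counting error only. Named genes are the 7 rows, their opposite miRNAs, the rows with the highest antisense counts outside the rule, genes of the same clusters and lists, and the nearest row in level. Mir30e, Mir486 and Mir652, and Mir126a as a strand pair, were named after their values were seen.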

Additional observations from a re-analysis of the deposited data

How the results depend on the processing

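No paired analysis was possible because the series has 1 group, whose 2 replicates are compared with each other. With all reads of a library as its total, the 7 rows held 1.47% in place of 3.02%, and 2 of them were lower in replicate 1 past the threshold in place of 1, Gm24083 then standing at -0.04 on the log2 scale (adjusted p = 0.0386 in the exact binomial test, and 0.0386 to 0.903 over its alternatives). Its sign turned under DESeq2 size factors, at 0.0043, without passing the threshold. Leaving out a replicate gave shares of 2.80% to 3.24%, and 7 to 8 rows that met the rule, since in replicate 1 alone Mir497b met it too. An antisense share over 50% in place of 0 sense counts gave 11 rows. At least 10 or at least 1000 antisense counts gave 7. Clusters within 3 kb had 25 genes around Mir376a and around Mir380 and 13 around Mir409. Mir376a then ranked 5 in place of 9, Mir380 7 in place of 13 and Mir409 1 in place of 3, and these clusters held 4.93% and 2.49% of the counts in place of 7.42%. With stretches of 22 bases, 0 opposite precursors shared sequence, since Mir378a then had none in common with Mir378c. With 18 bases, Mir378a shared sequence with Mir378b as well as Mir378c. For the other 6 rows, the direction and the side of the threshold of the replicate ratio were the same under 4 other scalings and 2 other count minimums. The scalings shifted the median log2 ratio of the 355 levels by -0.03 to 0.02. Over all alternatives, 124 values were rated as the same, 16 as moved and 1 as newly past the threshold. A level was rated the same if it moved by less than the SD between replicates. A ratio had to stay on its side of the threshold, and a count of rows, pairs or genes within 1.5-fold. With 1 of 2 replicates left out, a level always lies within that SD, so these ratings carry no information. The 2 replicates limit every SD. Because the rule required 0 sense counts, the limit of 3 counts per library is no bound on the sense strand of the 7 rows.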
